A study of Mus musculus with 10 samples.

Results

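The 9 genes described here were *Pomc*, which encodes the ACTH precursor of the corticotroph, and the transcription factors *Tbx19*, *Pitx1*, *Neurod1*, *Nr4a1*, *Nr4a2*, *Nr4a3*, *Lhx3* and *Isl1*. They were taken by name out of 53801 genes in the count table, with earlier results of these data known. They are the hormone gene of this cell type and factors known to act on its promoter or in its lineage. Their RNA was measured in 10 libraries of AtT20/D16v-F2 cells, a cell line from a mouse pituitary tumour of corticotrophs. One stable line carried a lentivirus with a non-targeting shRNA (NT, n = 5) and the other carried a lentivirus with *Creb3l1*-shRNA1 (n = 5), an shRNA against the transcription factor Creb3l1. The comparison asked how RNA levels differed between the knockdown line and its control. Each arm was 1 stable line, so the line and the knockdown cannot be told apart, and the sources used here do not say whether a line was a clone or a pool. The methods of the study call its replicates biological, and the labels do not say whether the libraries of a line came from separate cultures. The p-values measure the spread between libraries of 1 line each.

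Pomc is cut by prohormone convertases into ACTH and other peptides, and corticotrophs release ACTH in response to CRH. Its promoter in the pituitary is known for its dependence on a combination of factors: the T-box factor Tpit (*Tbx19*) and the homeodomain factor Pitx1 act together, NeuroD1 binds an E-box with an E protein partner, and the NR4A orphan nuclear receptors carry the CRH and cAMP signal to the gene. Lhx3 and Isl1 are LIM-homeodomain factors of early pituitary development.

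In the knockdown line the RNA of *Pomc* fell by 30.0%, and those of *Tbx19* and *Nr4a1* fell by 17.1% and 23.5%. *Neurod1* rose by 53.3%, *Pitx1* by 28.2% and *Nr4a2* by 19.6%. *Nr4a3* and *Lhx3* did not pass the test, and *Isl1* had no count in any library. Of the 9 genes, 8 had counts and all of these 8 were among the 14336 genes tested. With edgeR's quasi-likelihood test and an adjusted p under 0.01 (Benjamini-Hochberg), 6 of the 8 were called, beside 40.7% of all genes tested. Log2 fold changes are the knockdown line against NT, and normalised counts are counts scaled for library size with edgeR's TMM factors. In each direction 3 were called, beside 20.6% of all genes called higher and 20.1% called lower. The normalised counts of both lines did not overlap for 5 of the 8, beside 36% of all genes. The 6 genes called were those that averaged 100 normalised counts or more, and 46.9% of the 11001 genes at that level were called. Many genes of the table differed between the lines, and a call by itself sets no gene apart.

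The libraries held between 17420698 and 22205107 counts. A single gene, *Gm42418*, took 4.13% of the counts of NT replicate 3 and between 0.106% and 0.191% of those of the other libraries, and the fold changes of the 9 genes are also given without that library. The targeted gene *Creb3l1* stood at 3689 ± 148 normalised counts (SD, n = 5) in NT cells and 1090 ± 59.2 (SD, n = 5) in knockdown cells, a log2 fold change of -1.76 (SE 0.036, adjusted p = 2.1e-33 in edgeR's test). Of the markers of corticotrophs, *Pomc*, *Tbx19* and the convertase gene *Pcsk1* were high, the CRH receptor gene *Crhr1* had between 18 and 48 counts per library, and the vasopressin receptor gene *Avpr1b* had no count in any library. *Pcsk1* fell from 9981 ± 179 to 7269 ± 196 normalised counts (SD, n = 5 each), a log2 fold change of -0.46 (adjusted p = 1.2e-19 in edgeR's test). Of 13 markers of other pituitary cell types, *Prl*, *Tshb*, *Fshb* and *Gnrhr* had no count, and no other marker but *Pcsk2*, *Sox2* and *Pax7* exceeded 8 counts in any library. The summed raw counts of these markers, not scaled for library size, ran from 386 to 497 in NT libraries and from 482 to 633 in knockdown libraries. Without *Pcsk2* and *Sox2* these sums ran from 11 to 29 and from 8 to 18. *Pcsk2* (log2 fold change 0.25, adjusted p = 0.0016) and the stem cell factor gene *Sox2* (0.33, adjusted p = 0.0048) rose. *Pax7*, a melanotroph marker like *Pcsk2*, was too low for that test and was lower in knockdown cells, at a ratio of 0.397 after scaling. *Sox9*, another stem cell factor gene, was not called (-0.14, adjusted p = 0.42). The part of these genes in the results below was not tested. In RNA of whole cultures, fewer cells of a type and less RNA per cell cannot be told apart.

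The stretches upstream of the RefSeq start sites of *Pomc*, *Nr4a1*, *Nr4a2* and *Nr4a3* (RefSeq on GRCm38.p6) are printed because *Pomc* and *Nr4a1* fell while *Nr4a2* rose, and because they hold words that the field ties to cAMP and nuclear receptor control. RefSeq start sites were matched for 8 of the 9 genes, all but *Pitx1*. Capitals mark matches on either strand to words named after the sequences. The *Pomc* stretch is chr12:3954695-3954944 on the plus strand, *Nr4a1* chr15:101266596-101266845 on the plus strand, *Nr4a2* chr2:57124004-57124253 on the minus strand, and *Nr4a3* chr4:48045055-48045152 on the plus strand. The first 3 span bases -250 to -1 before the start and overlap no annotated exon of their genes, and the *Nr4a1* stretch lies inside the span annotated for that gene. The *Nr4a3* stretch ends at base -153, where an annotated exon begins.
Pomc: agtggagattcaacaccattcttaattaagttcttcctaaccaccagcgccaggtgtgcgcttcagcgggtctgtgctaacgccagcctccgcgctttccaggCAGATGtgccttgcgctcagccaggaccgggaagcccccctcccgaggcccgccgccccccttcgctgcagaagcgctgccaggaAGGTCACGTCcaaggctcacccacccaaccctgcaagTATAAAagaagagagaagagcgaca
Nr4a1: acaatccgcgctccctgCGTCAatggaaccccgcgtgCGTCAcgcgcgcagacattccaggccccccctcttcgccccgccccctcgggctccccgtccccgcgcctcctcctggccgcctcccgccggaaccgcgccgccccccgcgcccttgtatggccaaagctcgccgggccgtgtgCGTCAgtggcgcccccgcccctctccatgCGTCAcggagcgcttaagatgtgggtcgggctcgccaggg
Nr4a2: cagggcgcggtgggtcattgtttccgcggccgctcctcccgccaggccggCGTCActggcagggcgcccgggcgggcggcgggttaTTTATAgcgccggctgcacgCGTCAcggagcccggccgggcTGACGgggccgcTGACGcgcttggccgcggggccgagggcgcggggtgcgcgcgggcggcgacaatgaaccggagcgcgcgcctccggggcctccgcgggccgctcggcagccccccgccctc
Nr4a3: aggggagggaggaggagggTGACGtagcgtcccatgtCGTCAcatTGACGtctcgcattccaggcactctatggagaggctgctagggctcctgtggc

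Both strands of the 250 bases before 32851 RefSeq start sites were searched for 10 words. In *Pomc*, AGGTCA (bases -62 to -57), the core of nuclear receptor sites, overlapped GACGTG (-58 to -53, minus strand), a variant of the G-box, in the capitals AGGTCACGTC. AGGTCA was in 14.0% and GACGTG in 5.20% of all the promoters. The *Pomc* stretch also held CAGATG (-147 to -142), an E-box word found in 14.4% of promoters, and the TATA box word TATAAA (-25 to -20), found in 12.4%. Whether NeuroD1 binds this CAGATG was not tested. The *Pomc* stretch held no CGTCA, the core of the cAMP response element. In contrast, *Nr4a1*, *Nr4a2* and *Nr4a3* each held 4 copies of CGTCA within 250 bases, and 0.137% of all promoters held at least that many, while 17.8% held at least 1. For *Nr4a1* the copies began at -233, -213, -69 and -40, all on the plus strand. For *Nr4a2* they began at -200 and -144 on the plus strand and at -123 and -111 on the minus strand, where they read TGACG, and TATAAA stood on the minus strand at -164 to -159 (TTTATA as printed). For *Nr4a3*, 3 of the 4 were in the stretch printed, at -231 and -205 on the minus strand and at -213 on the plus strand. The copy not printed, at -147 to -143, overlapped a GACGTG at -146 to -141, and the T-box word TCACACC, found in 3.33% of promoters, stood at -35 to -29.

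None of the 10 words was in the windows of *Tbx19* and *Neurod1*. The *Neurod1* window (chr2:79456637-79456886) lay partly inside the span annotated for that gene, which ends at 79456751. The *Isl1* window held 2 copies of CGTCA, 1 GACGTG and the bicoid word TAATCC, found in 6.25% of promoters. *Lhx3* had 2 RefSeq start sites, and their windows held 1 CGTCA, 1 TATAAA and 1 CAGATG between them. The window with the CAGATG lay inside the span annotated for *Lhx3*, which ends at 26208289. The other window (chr2:26208250-26208499) lay partly inside that span. No window of the 8 genes held CACGTG (the G-box, in 6.02% of promoters), TGACGTCA (the full cAMP response element, in 1.55%) or AAAGGTCA (the NGFI-B response element, in 1.34%). The full element TGACGTCA contains CGTCA, and AAAGGTCA contains AGGTCA. A match is a run of letters and not a measured site. Bases further upstream were not searched, so a word missing from a window can lie beyond it. Of the 3 NR4A genes with the same number of CGTCA copies, 1 fell, 1 rose and 1 was not called.

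**Figure D1:**
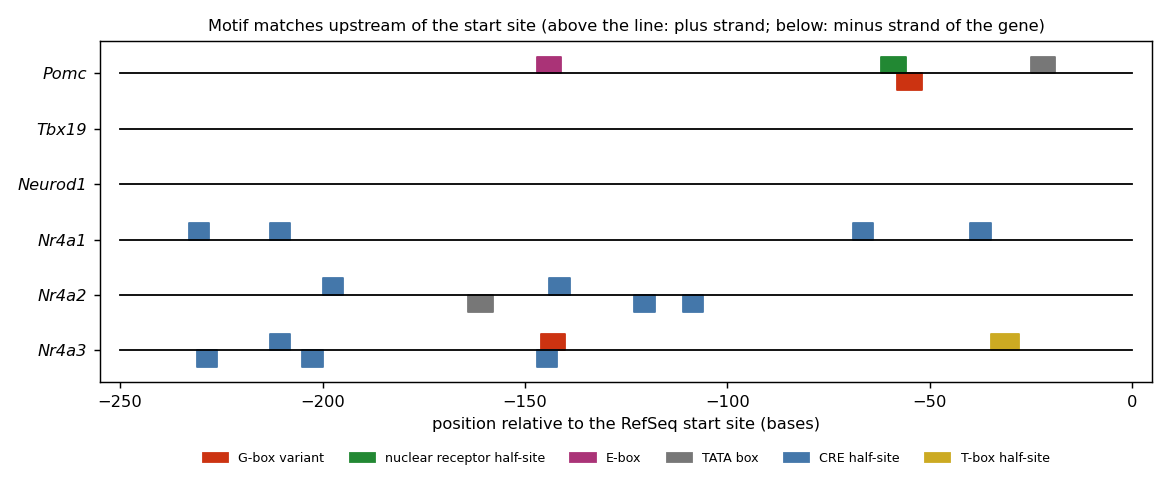
Matches to 6 of the words in the 250 bases before the RefSeq start sites of 6 genes, by position in bases relative to the start, with the plus strand of the gene above each line and the minus strand below it. The NR4A genes each show 4 cAMP response element cores (CGTCA, blue), *Pomc* shows none, and *Tbx19* and *Neurod1* show no match.

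*Pomc* (ENSMUSG00000020660, chr12:3954951-3960642, plus strand) had 130224, 126258, 131223, 137531 and 131820.0 normalised counts in NT replicates 1 to 5. In the knockdown line it had 87908, 93157, 91514, 95082 and 92562 in replicates 1 to 5. Every knockdown library lay below every NT library, with a wide gap between the lines. The means were 131411 ± 4050.2 and 92045 ± 2652 (SD, n = 5 each), a log2 fold change of -0.51 (SE 0.021, 95% interval -0.56 to -0.47, adjusted p = 1.2e-16 in edgeR's test). Without NT replicate 3 the log2 fold change was -0.52. The share of all counts taken by *Pomc* was 0.616% to 0.681% in NT libraries and 0.433% to 0.471% in knockdown libraries. On the CPM scale, on which counts are set against the scaled library total, its mean fell by 1942, from 6481 to 4539.5. This was the fourth largest decrease of any gene, and the third largest without NT replicate 3, the library with the high *Gm42418* count. On the log2 scale the change was moderate: 761 of the 2879 genes called lower (26.4%) fell by more. Among abundant genes few fell as far, and of the 153 genes tested with at least the mean count of *Tbx19*, 2 had a lower log2 fold change than *Pomc*. One of these was *Gm42418*, which was not called (adjusted p = 0.13) and was high in NT replicate 3 alone. Without that library it was 2 of 157 genes, and *Gm42418* was not among them.

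*Tbx19* (ENSMUSG00000026572, chr1:165137855-165160773, minus strand) encodes Tpit, the selector factor of the POMC lineages. It had 11534, 11593, 11694, 11848 and 11636 normalised counts in NT replicates 1 to 5 and 9921, 9861, 9689.5, 9429 and 9447 in knockdown replicates 1 to 5. All knockdown libraries lay below all NT libraries, and the NT libraries were close to each other, with a coefficient of variation of 1.03%. The means were 11661 ± 119.9 and 9669 ± 228 (SD, n = 5 each), a log2 fold change of -0.27 (SE 0.022, 95% interval -0.31 to -0.23, adjusted p = 1.2e-13). It was -0.27 without NT replicate 3 as well. Its interval did not overlap that of *Pomc*, which fell by more.

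*Pitx1* (ENSMUSG00000021506, chr13:55825051-55836192, minus strand) encodes the homeodomain partner of Tpit. It had 943, 965, 895, 821 and 835 normalised counts in NT replicates 1 to 5 and 944, 1234, 1242, 1067 and 1233 in knockdown replicates 1 to 5. Of the knockdown libraries, 4 lay above all NT libraries, and knockdown replicate 1 lay within the NT range. The means were 892 ± 63.9 and 1144 ± 134 (SD, n = 5 each), a log2 fold change of 0.36 (SE 0.088, 95% interval 0.16 to 0.56, adjusted p = 0.0073). This call was the least firm of the 6: with 1 library left out at a time the log2 fold change stayed between 0.33 and 0.42, but the call was lost in 7 of the 10 fits, namely without any 1 of NT replicates 1, 3, 4 and 5 or knockdown replicates 2, 3 and 5, with an adjusted p of up to 0.020. Without NT replicate 3 it was 0.36 (adjusted p = 0.016), and without knockdown replicate 1 it was 0.42 (SE 0.051, adjusted p = 5.4e-08). The gene shares 165 exon bases with *Gm47071* on the opposite strand (mean count 63.4). The strand setting of the counting was not given in the sources used here, and the part of that gene in the *Pitx1* value was not tested.

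*Neurod1* (ENSMUSG00000034701, chr2:79452521-79456751, minus strand) encodes the basic helix-loop-helix (bHLH) factor of corticotrophs that binds the *Pomc* E-box. It had 1498, 1664, 1594, 1544 and 1531 normalised counts in NT replicates 1 to 5 and 2309, 2321, 2501, 2427 and 2442 in knockdown replicates 1 to 5. All knockdown libraries lay above all NT libraries. The means were 1566 ± 64.6 and 2399.9 ± 82.3 (SD, n = 5 each), a log2 fold change of 0.62 (SE 0.033, 95% interval 0.55 to 0.68, adjusted p = 3.2e-19), and 0.62 without NT replicate 3. It was the only 1 of the 6 genes called whose estimated change was at least 1.5-fold. *Neurod1* shares 201 exon bases with *Cerkl* on the same strand (mean count 487), so reads there could have been split or dropped by the counting.

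**Figure D2:**
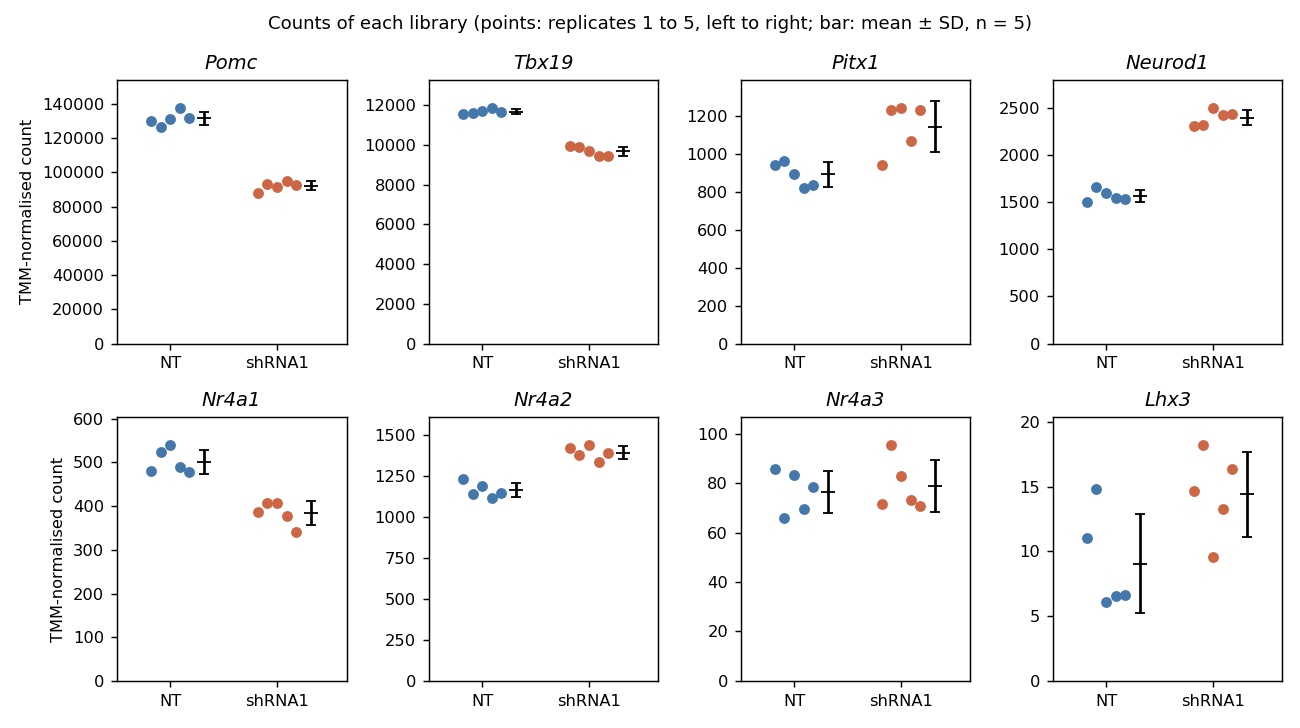
TMM-normalised counts (vertical axes, each from 0) of the 8 genes with counts, in NT and *Creb3l1*-shRNA1 libraries. Points are replicates 1 to 5 from left to right and bars are the mean ± SD (n = 5). The lines do not overlap for *Pomc*, *Tbx19*, *Neurod1*, *Nr4a1* and *Nr4a2*, and overlap for *Pitx1*, *Nr4a3* and *Lhx3*.

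The NR4A family encodes orphan nuclear receptors whose genes respond quickly to cAMP signals. *Nr4a1* (Nur77; ENSMUSG00000023034, chr15:101254269-101274795, plus strand) had 481, 523, 539, 489 and 478 normalised counts in NT replicates 1 to 5. In knockdown replicates 1 to 5 it had 387, 408, 407, 378 and 341, all below the lowest NT library. The means were 502 ± 27.5 and 384 ± 27.5 (SD, n = 5 each), a log2 fold change of -0.39 (SE 0.060, 95% interval -0.51 to -0.27, adjusted p = 6.6e-07), and -0.36 without NT replicate 3.

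*Nr4a2* (Nurr1; ENSMUSG00000026826, chr2:57106830-57124003, minus strand) moved the other way. It had 1230.1, 1138, 1186, 1117 and 1146 normalised counts in NT replicates 1 to 5 and 1421, 1374, 1436, 1334 and 1390.4 in knockdown replicates 1 to 5. All knockdown libraries lay above all NT libraries. The means were 1163 ± 44.8 and 1391 ± 40.2 (SD, n = 5 each), a log2 fold change of 0.26 (SE 0.036, 95% interval 0.19 to 0.33, adjusted p = 7.6e-08), and 0.26 without NT replicate 3.

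*Nr4a3* (Nor1; ENSMUSG00000028341, chr4:48045153-48086447, plus strand) had 85.5, 65.7, 83.1, 69.5 and 78.3 normalised counts in NT replicates 1 to 5 and 71.7, 95.3, 83.0, 73.0 and 70.9 in knockdown replicates 1 to 5. The lines overlapped. The means were 76.4 ± 8.57 and 78.7 ± 10.4 (SD, n = 5 each), a log2 fold change of 0.039 (SE 0.13, adjusted p = 0.82). The 95% interval ran from -0.22 to 0.29, so a change the size of that of *Nr4a1* lay outside it and a change of the size of that of *Nr4a2* lay inside it. The sign of this small value turned without NT replicate 2 (-0.0068) or without knockdown replicate 2 (-0.033).

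Per length of exon (RPKM, which is CPM divided by the exon length in kilobases, computed here), *Nr4a2* was the most abundant of the family in both lines. Its RPKM was 1.88 to 2.21 times that of *Nr4a1* in NT libraries and 2.91 to 3.53 times in knockdown libraries, with no overlap. *Nr4a1* made up 32.3% ± 1.499 (SD, n = 5) of the summed RPKM of the family in NT cells and 23.5% ± 1.22 in knockdown cells, *Nr4a2* made up 64.8% ± 1.31 and 73.7% ± 1.46, and *Nr4a3* 2.88% ± 0.268 and 2.82% ± 0.334. The summed RPKM was 21.8 ± 0.707 in NT cells and 23.0 ± 0.735 in knockdown cells (SD, n = 5 each), and the ranges of the lines overlapped. These shares are descriptions of the values above and were not tested.

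*Lhx3* (ENSMUSG00000026934, chr2:26200212-26208289, minus strand) was near the limit of these libraries. Its raw counts were 11, 14, 5, 7 and 7 in NT replicates 1 to 5 and 16, 17, 9, 14 and 18 in knockdown replicates 1 to 5, and the lines overlapped. The log2 fold change was 0.67 (SE 0.32, 95% interval 0.028 to 1.32, adjusted p = 0.077), which did not pass the threshold, and 0.58 without NT replicate 3. Summed over libraries it had 44 counts in NT and 74 in knockdown cells, a ratio of 1.60 after scaling by library size, with a 95% interval of 1.09 to 2.39 for counting error only. *Isl1* (ENSMUSG00000042258, chr13:116298281-116309689, minus strand) had 0 counts in each of the 10 libraries, which allows up to 3 counts per library, or 0.135 to 0.172 CPM.

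**Figure D3:**
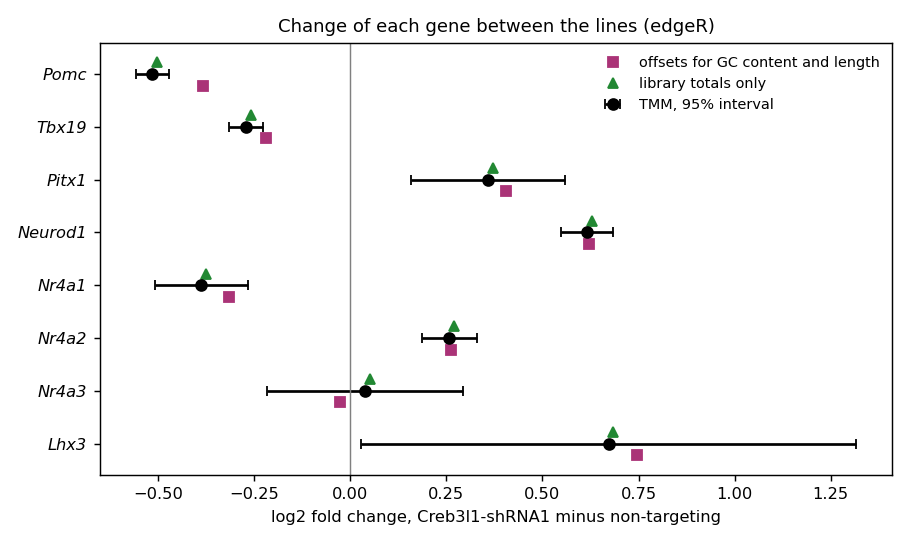
Log2 fold change (horizontal axis, *Creb3l1*-shRNA1 minus NT) of the 8 genes tested, with the 95% interval of edgeR's fit on TMM-normalised counts (black), and the values with library totals only (green) and with GC content and length offsets (purple). *Pomc* moves from -0.51 to -0.38 with the offsets, *Nr4a3* crosses 0, and the other genes keep their sign.

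Per exon length the 9 genes kept 1 order in both lines, and no neighbouring pair overlapped in its range over libraries in either line. *Pomc* stood at 4917 ± 152 RPKM (SD, n = 5) in NT and 3444 ± 99.2 in knockdown cells, place 6 and place 5 among all genes. Without NT replicate 3 it held place 4 in NT cells, so the order of these places depends on that library. *Tbx19* came next with 180.2 ± 1.85 and 149 ± 3.52, then *Neurod1* with 28.3 ± 1.17 and 43.4 ± 1.49. *Pitx1* stood at 16.6 ± 1.19 and 21.2 ± 2.49, *Nr4a2* at 14.1 ± 0.544 and 16.9 ± 0.489, and *Nr4a1* at 7.06 ± 0.387 and 5.40 ± 0.386. *Nr4a3* (0.629 ± 0.0706 and 0.649 ± 0.0860) and *Lhx3* (0.146 ± 0.0618 and 0.234 ± 0.0530) were under 1 RPKM, and *Isl1* was at 0. The level of *Pomc* was 26.4 to 28.1 times that of *Tbx19* in NT libraries and 21.5 to 24.4 times in knockdown libraries. Compared with *Neurod1*, *Pomc* was 157 to 184 times as high in NT libraries and 75.8 to 83.1 times in knockdown libraries. *Tbx19* was 5.96 to 6.58 times as high as *Neurod1* in NT libraries and 3.31 to 3.67 times in knockdown libraries. These ratios combine genes whose changes are given above and were not tested.

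**Figure D4:**
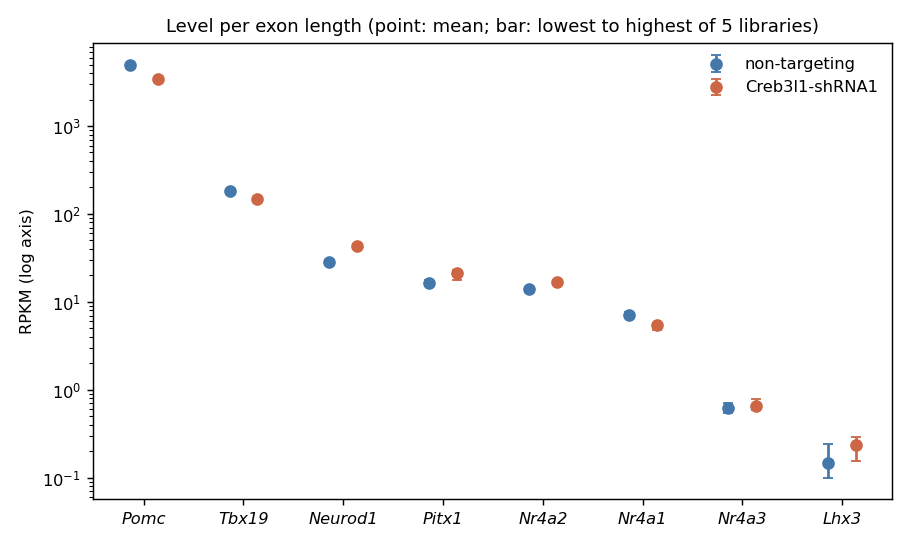
Level of the 8 genes with counts in RPKM (log axis), in NT (blue) and *Creb3l1*-shRNA1 (orange) libraries, as the mean with a bar from the lowest to the highest of 5 libraries. The order from *Pomc* at 4917 and 3444 RPKM down to *Lhx3* at 0.146 and 0.234 is the same in both lines.

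The genes with the most similar pattern were sought among the 11001 genes that averaged 100 normalised counts or more, by the root mean square difference of log2 CPM, centred for each gene, over the 10 libraries. Nearest to *Pomc* were *H2-K1* (0.027), *Mtus1* (0.035), *Hspb8* (0.037), *Ifi30* (0.042) and *Acaa2* (0.044), which had log2 fold changes from -0.57 to -0.49. A small difference by this measure requires a similar change between the lines, so these fold changes follow from the choice. Among the 2 nearest to *Tbx19* was *Lrrc59* (0.025), nearest to *Neurod1* were *Trib1* (0.038) and *Tbc1d8* (0.045), and nearest to *Pitx1* were *Hnrnpa0* (0.047) and *Tbx1* (0.076). *Dpp7* (0.049) and *Rhof* (0.053) were nearest to *Nr4a1*, *Smad1* (0.027) and *Nf2* (0.029) to *Nr4a2*, *Fv1* (0.085) and *Borcs6* (0.087) to *Nr4a3*, and *Zfp521* (0.24) and *Klhl23* (0.24) to *Lhx3*.

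Known partners and neighbours of these factors were examined in 5 lists with 63 genes, of which 51 were tested. In all, 23 rose and 4 fell, with a median log2 fold change of 0.10, beside -0.0025 over all genes tested. The 23 include *Neurod2*, which passed the filter through its knockdown libraries alone. Over all genes tested 20.6% were called higher and 20.1% lower, and of those averaging 100 normalised counts or more 46.9% were called. The lists were chosen with earlier results of these data known, and their counts stand beside the background above without a test.

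Of 12 bHLH factors and regulators around NeuroD1, 10 were tested, 7 rose and none fell (median log2 fold change 0.19). One of the 7, *Neurod2*, passed the filter through its knockdown libraries alone, and under a minimum of 10 counts per library 6 rose. *Hes6*, a Hes family member, rose from 1852 ± 55.4 to 3231 ± 177 normalised counts (SD, n = 5 each), a log2 fold change of 0.80 (adjusted p = 1.7e-22). *Insm1*, a zinc finger factor of neuroendocrine cells, rose by 0.36 on the log2 scale. The E protein genes *Tcf3* (0.16) and *Tcf12* (0.17), which encode NeuroD1 partners, and the inhibitor genes *Id1* (0.30) and *Id3* (0.21) rose as well. When offsets for GC content and length, which take out a smooth relation of each library with both, were added, *Tcf12* lost its call (0.075, adjusted p = 0.023). *Neurod2*, a relative of *Neurod1*, had 0, 0, 0, 2 and 0 counts in NT replicates 1 to 5 and 17, 11, 13, 18 and 21 in knockdown replicates 1 to 5. The lines did not overlap, and its ratio after scaling was 38.1, with a 95% interval for counting error of 10.2 to 320.4. *Id2* and *Hes1* were among those not called.

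Among 13 LIM-homeodomain genes and cofactors of the kind that Lhx3 works with, 11 were tested, 4 rose and 2 fell (median 0.085). *Lhx2* rose from 177 ± 14.8 to 263 ± 11.9 normalised counts (SD, n = 5 each; log2 fold change 0.57, adjusted p = 6.8e-08). The cofactor gene *Ldb1* (0.17), *Ssbp2* (0.20), whose product binds Ldb proteins, and *Rlim* (0.26), which encodes a ubiquitin ligase of these cofactors, rose. The LIM-only genes *Lmo1* (-0.38) and *Lmo4* (-0.20) fell. *Lhx4*, the closest relative of *Lhx3*, had between 3 and 20 counts and was not called (0.085, adjusted p = 0.87).

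Of 9 NR4A partners and coregulators, 8 were tested, 5 rose and none fell (median 0.15). *Rxra*, which encodes a retinoid X receptor that pairs with Nur77 and Nurr1, rose from 965 ± 50.4 to 1348 ± 52.7 normalised counts (SD, n = 5 each; log2 fold change 0.48, adjusted p = 9.3e-14). *Rxrb* (0.14), the coactivator gene *Ncoa2* (0.18), *Trim28* (0.17) and the deacetylase gene *Hdac2* (0.16) rose by less, and with the offsets *Ncoa2* lost its call (0.078, adjusted p = 0.023). *Smarca4*, which encodes Brg1, had a log2 fold change of 0.051 (adjusted p = 0.089).

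Of 10 genes for signals to *Pomc*, 9 were tested, 2 rose and 2 fell (median -0.0023). *Etv1*, an ETS factor gene, rose from 2287 ± 41.4 to 3297 ± 109.5 normalised counts (SD, n = 5 each; log2 fold change 0.53, adjusted p = 8.4e-19). *Il6st*, which encodes gp130, the shared receptor chain for LIF and interleukin 6, fell (-0.36, adjusted p = 2.0e-11), and *Jun* fell (-0.18). *Creb1* was called higher (0.15), but with the offsets its log2 fold change was 0.00019 (adjusted p = 0.997). *Stat3*, *Lifr*, *Fos*, *Nfkb1* and *Rela* were not called, but with the offsets *Stat3* was called lower (-0.079, adjusted p = 0.0047).

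Of 19 other pituitary lineage factors, 13 were tested, 5 rose and none fell (median 0.10). *Pax6* rose from 516 ± 14.9 to 699 ± 8.64 normalised counts (SD, n = 5 each; log2 fold change 0.44, adjusted p = 5.9e-11), and *Sox2*, *Six6* (0.13) and *Eya1* (0.15) were among the others that rose. *Pax7*, the selector of melanotrophs, was too low for the main test, with 9, 18, 8, 21 and 16 counts in NT replicates 1 to 5 and 6, 6, 7, 3 and 8 in knockdown replicates 1 to 5. Its ratio after scaling was 0.397, with a 95% interval for counting error of 0.250 to 0.616, and the lines had 1 raw count in common, the highest in knockdown and the lowest in NT cells. *Pou1f1* and *Hesx1* had no count in any library.

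**Figure D5:**
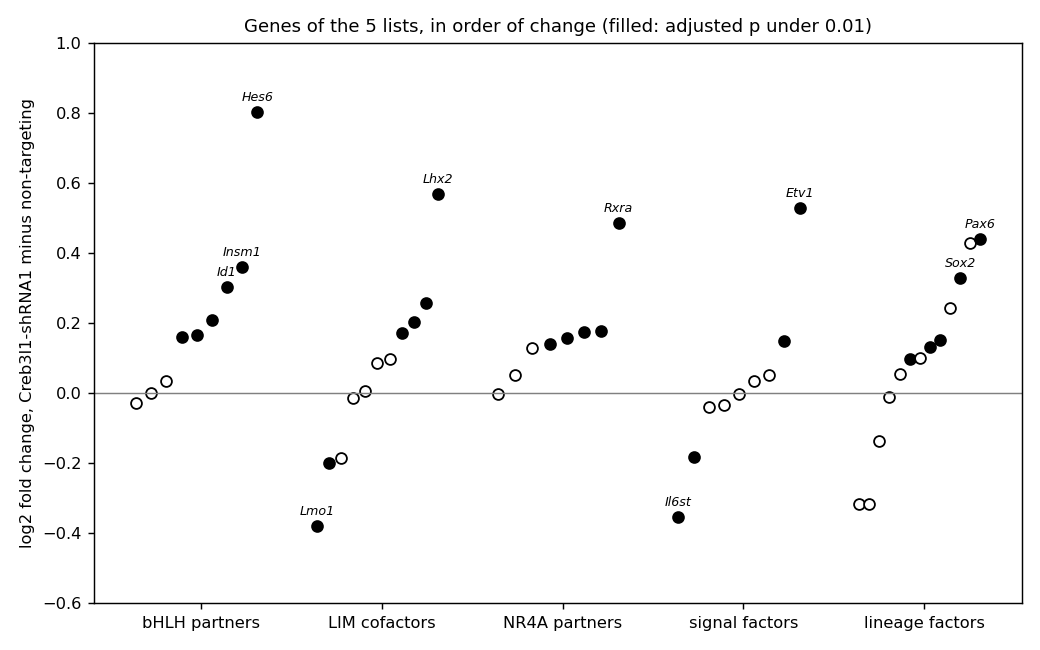
Log2 fold change (*Creb3l1*-shRNA1 minus NT) of the tested genes of the 5 lists, in order within each list, with filled circles for an adjusted p under 0.01. *Neurod2* is left off because its NT libraries were near 0, and most filled circles lie above 0, with *Lmo1*, *Lmo4*, *Il6st* and *Jun* below it.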

How the data were processed

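RNA was measured in 10 libraries, and lines and replicate numbers were taken from the sample labels. The authors made mRNA libraries, mapped reads to GRCm38 (STAR) and summed them by gene (featureCounts), per the labels and the paper. They deposited raw counts, whole numbers without normalisation. Everything else was computed here.

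The tools were edgeR 4.0.16, limma 3.58.1 and, as an alternative, DESeq2 1.42.0 (R 4.3.3), and Python 3.11.15. The filter filterByExpr left 14336 genes, libraries were scaled by TMM, and the lines were compared by the robust quasi-likelihood test over all genes with no covariate, adjusted by Benjamini and Hochberg, with a threshold of 0.01. The biological coefficient of variation was 5.37%. Normalised counts are counts divided by the effective library size, times its mean. Scripts were tested on simulated data. Exon lengths came from a GENCODE annotation of GRCm38, another release than the authors' annotation, and symbols were matched to 53620 identifiers. No replicate pair agreed within sampling noise (smallest chi-square per degree of freedom 1.84). Pairs with NT replicate 3 stood at 63 to 71.9. Pairs with knockdown replicate 2 stood at 5.39 to 9.1, and the other knockdown pairs at 2.27 to 3.34. Depths were 17420698 to 22205107 counts, and intervals called counting intervals cover counting error only.

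The members and lists were chosen with earlier results of these data known. Genes named were all members, *Creb3l1*, list genes past the threshold (up to 4 per list with the largest change, and others by role) and the genes nearest to each tested member. *Gm42418*, *Pcsk2* and the overlapping genes were named after their values were seen. Alternatives were DESeq2, RLE factors, library totals, no filter, a minimum of 10 counts per library, a replicate block, GC content and length offsets (splines with 5 degrees of freedom), leaving out 1 library at a time, a threshold of 0.05 and a change of at least 1.5-fold. Other assays of the study were not analysed here, and some genes of the lists and nearest genes are not reported here.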

Additional observations from a re-analysis of the deposited data

How the results depend on the processing

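*Pomc*, *Tbx19*, *Neurod1*, *Nr4a1* and *Nr4a2* kept their direction and call under all 17 alternatives that gave a log2 fold change, with ranges of -0.53 to -0.38, -0.28 to -0.22, 0.60 to 0.64, -0.41 to -0.31 and 0.24 to 0.28. *Pomc* was lowest in size with GC content and length offsets (-0.38). *Pitx1* ran from 0.33 to 0.42 with 1 library left out and lost its call in 7 of these 10 fits. *Nr4a3*, never called, turned to -0.027 with the offsets, and ran from -0.033 to 0.086 with 1 library left out. *Lhx3*, never called, ran from 0.57 to 0.91 and was not tested with at least 10 counts in every library. At a change of at least 1.5-fold, the counts became 1 higher (*Neurod1*) and 0 lower among the 9 genes. Among the bHLH genes 2 were higher, *Hes6* and *Neurod2*, of which *Neurod2* passed the filter through its knockdown libraries alone. In the other 4 lists the counts were 0 in either direction. With the offsets 1 signal gene was called higher (*Creb1* lost its call) and 3 lower (*Stat3* gained one). Among lineage factors, 1 was called lower with no filter on low counts (*Pax7*, adjusted p = 0.0033) and 1 at an adjusted p under 0.05 (*Nr5a1*).

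With the replicate block, *Pomc* was at -0.51, *Tbx19* at -0.27, *Pitx1* at 0.35, *Neurod1* at 0.62, *Nr4a1* at -0.39, *Nr4a2* at 0.26, *Nr4a3* at 0.036 and *Lhx3* at 0.69, and it changed no call among them. Lineage factors called higher were 7 rather than 5, and they were 4 to 6 with 1 library left out at a time. Deviations of libraries with the same number correlated at -0.065 to 0.040, and 2 of 5 numbers matched best with their own. Correlations over all genes tested, low counts included, cannot decide whether libraries with equal numbers were paired, and the labels do not say. With the block 6013 genes were called, beside 5837 in the main fit. Between 5408 and 6172 genes were called in the fits at an adjusted p under 0.01, and 49.6% to 54.1% of these were higher. *Lhx3*, *Neurod2* and *Pax7* had at most 21 counts in any library, and their ratios are given with counting intervals.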

Other observations

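*Zbtb20*, a gene known from lactotroph development, had 1025 ± 100.0 and 1375 ± 236 normalised counts (SD, n = 5 each) and a log2 fold change of 0.43 (adjusted p = 0.025), with an adjusted p of 0.0038 in DESeq2. With the replicate block its adjusted p was 0.00028. *Six3* was at 0.10 (adjusted p = 0.053) and at 0.14 with GC content and length offsets (adjusted p = 0.0038). With the replicate block *Six3* was at 0.0995 (adjusted p = 0.0075).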
